A study of Mus musculus with 10 samples.

Results

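The genes described here are 9 genes that mark Kupffer cells, the resident macrophages of the liver, in RNA sequencing of hepatocyte preparations. They were chosen by name (Clec4f, Cd5l, Csf1r, Vsig4, Timd4, Marco, Adgre1, Cd163, and Id3) and not by a measured value. Earlier results of these data were known at that time, so the choice was not blind to them. All 9 were found among the 21939 genes of the deposited table. Freshly isolated hepatocytes of 10 male C57BL/6J mice were sequenced, with 1 library per mouse. All mice had received AAV8Cre 12 days earlier. AAV8Cre is an adeno-associated virus with a Cre recombinase gene under the thyroxine-binding globulin promoter, which is active in hepatocytes. The methods give the age of the mice as 8 to 9 weeks, without stating for these libraries whether at injection or at isolation. The 3 control libraries came from injected wild-type mice without floxed alleles, 2 from Nrf2 flox/flox mice (Nrf2 KO), 2 from p65 flox/flox mice (p65 KO), and 3 from mice with floxed alleles of both genes (DKO). Nrf2 is a transcription factor of the oxidative stress response and p65 is a subunit of NF-κB. A floxed line without virus was not part of the comparison, so that the control group differs from the others in its alleles and shares with them the virus and the Cre. The cells were obtained by Liberase perfusion, low-speed centrifugation, and a Percoll step that enrich hepatocytes, and the Cre promoter is not one of Kupffer cells.

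Kupffer cells line the liver sinusoids, where they take up microbes, aged red blood cells, and cell debris from the portal blood. They descend from fetal precursors, renew themselves locally, and depend on signaling through Csf1r and on cues from stellate cells, sinusoidal endothelial cells, and hepatocytes. Their identity genes encode mostly surface receptors for such cargo, together with 1 secreted protein and 1 nuclear regulator. In a hepatocyte preparation these genes, other than Id3, mark a cell type that is not the one enriched, whereas Id3 is also made by hepatocytes and endothelial cells. In such a bulk sample, more cells of a type and more RNA of a gene per cell cannot be told apart.

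Total counts of the 10 libraries ranged from 33707165 to 49897382. The gene for Nrf2, Nfe2l2, had between 1990 and 2318 normalized counts in the control libraries, 4739 and 5005 in the libraries labelled Nrf2 KO, 1993 and 1997 in those labelled p65 KO, and between 3434 and 5240 in those labelled DKO, so that its total was higher and not lower where it was floxed. The p65 gene Rela had between 1221 and 1276 normalized counts in control, 1268 and 1225 in Nrf2 KO, 1183 and 1209 in p65 KO, and between 1034 and 1488 in DKO. Exons cannot be separated in a table of gene totals, and the genotypes are therefore those of the labels. The 10 hepatocyte genes examined, among them Alb, Apoa1, and Ttr, were present in every library, and their summed normalized counts lay between 3534730 and 5566820. Normalized counts are counts divided by the library size after TMM scaling, relative to its mean over the libraries.

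All 9 Kupffer cell genes were detected in each library, but their levels were low in some. Timd4 rested on 1 count in control replicate 1, and Marco on 3 counts in Nrf2 KO replicate 2. Per kilobase of the main transcript, the mean level in the 3 control libraries was 1024 normalized counts for Id3, 62.6 for Clec4f, 62.1 for Cd5l, 29.6 for Vsig4, 14.7 for Csf1r, 8.98 for Marco, 8.23 for Adgre1, 5.12 for Timd4, and 3.93 for Cd163. Id3 lay apart from all others, since its lowest control library had 498 normalized counts per kilobase and the highest library of Clec4f 85.6. From Clec4f down, the ranges of neighbors in this order overlapped in control. In p65 KO the order was Id3, Cd5l, Clec4f, Vsig4, Marco, Csf1r, Adgre1, Cd163, and Timd4, with mean levels from 900.4 to 28.1 normalized counts per kilobase. There, Cd5l lay above Clec4f, Clec4f above Vsig4, Vsig4 above Marco, and Csf1r above Adgre1 in both libraries, whereas the other neighbors overlapped.

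The first comparison asked how the Kupffer cell genes stood in p65 KO libraries. Against control, 8 of the 9 genes were higher, by 5.36- to 12.3-fold, and Id3 was not called. A gene was called at a false discovery rate (FDR) of at most 0.05 over all 13641 genes tested and a log2 fold change above 1 or below -1. Of all genes tested, 5.05% were called higher and 1.54% lower in this comparison. The median log2 fold change of the 9 genes was 2.90, and that of all genes tested was 0.000896. For the same 8 genes, both p65 KO libraries lay above all 3 control libraries, which held for 26.2% of all genes tested.

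Of the receptors for carbohydrates and complement, Clec4f is a C-type lectin that in the mouse is largely restricted to Kupffer cells (GRCm39, chromosome 6 from 83621524 to 83633169). It had 77.3, 211, and 176 normalized counts in control replicates 1, 2, and 3, and 1127 and 848 in p65 KO replicates 1 and 2. Both p65 KO libraries stood far above the highest control library, and the log2 fold change was 2.67 (SE 0.505, FDR = 0.0084 from edgeR's quasi-likelihood test). Vsig4 encodes a receptor for fragments of complement C3 on Kupffer cells (chromosome X from 95290807 to 95337044). It had 29.8, 62.9, and 34.6 normalized counts in control and 310 and 241 in p65 KO. The log2 fold change of Vsig4 was 2.69 (SE 0.453, FDR = 0.00502).

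Among the scavenger receptors, Marco binds bacteria and other particles (chromosome 1 from 120402267 to 120432753). Marco had 15.5, 17.7, and 18.7 normalized counts in control, the narrowest spread of the 9 genes in this group, and 262 and 165 in p65 KO. Its log2 fold change of 3.62 (SE 0.569, FDR = 0.00386) was the largest of the 9. Cd163 takes up complexes of haptoglobin and hemoglobin (chromosome 6 from 124281606 to 124307560). It had 8.83, 23.6, and 19.6 normalized counts in control and 251 and 126 in p65 KO, a log2 fold change of 3.42 (SE 0.551, FDR = 0.00416). The 2 p65 KO libraries of Cd163 thus differed from each other, but the lower one was still far above control. Timd4, a receptor for phosphatidylserine on dying cells that marks long-resident Kupffer cells (chromosome 11 from 46701620 to 46735177), had 1.1, 17.7, and 14.9 normalized counts in control and 76.2 and 47.3 in p65 KO. The log2 fold change of Timd4 was 2.42 (SE 0.71, FDR = 0.0435), the weakest of the 8 calls, and of 11 settings that left out libraries this call was kept in 3.

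Cd5l encodes a secreted protein of macrophages that binds debris and lipids (chromosome 3 from 87265182 to 87278380). It had 68.5, 163, and 148 normalized counts in control and 1519 and 1033 in p65 KO, which made it the most abundant of the 8 called genes in these libraries. Its log2 fold change was 3.32 (SE 0.399, FDR = 0.00131), with the lowest FDR of the 9 genes. Csf1r, the receptor for the growth factors Csf1 and Il34 on which macrophages depend, had 28.7, 152, and 85.0 normalized counts in control and 751 and 587 in p65 KO. Its control libraries were more widely spread than those of Cd5l, and the log2 fold change was 2.90 (SE 0.52, FDR = 0.00654). Adgre1, which encodes the macrophage antigen F4/80 (chromosome 17 from 57665573 to 57790527), had 11, 35.4, and 36.4 normalized counts in control and 288 and 189 in p65 KO. The log2 fold change of Adgre1 was 3.09 (SE 0.55, FDR = 0.00633).

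Id3, an inhibitor of helix-loop-helix transcription factors that Kupffer cells need (chromosome 4 from 135870808 to 135873066), went apart from the other 8. It had 1716, 1574, and 636 normalized counts in control and 1574 and 728 in p65 KO. The groups overlapped throughout, and the log2 fold change was -0.19 (95% confidence interval from -1.35 to 0.98, FDR = 0.842). This interval covers both a decrease and an increase.

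**Figure D1:**
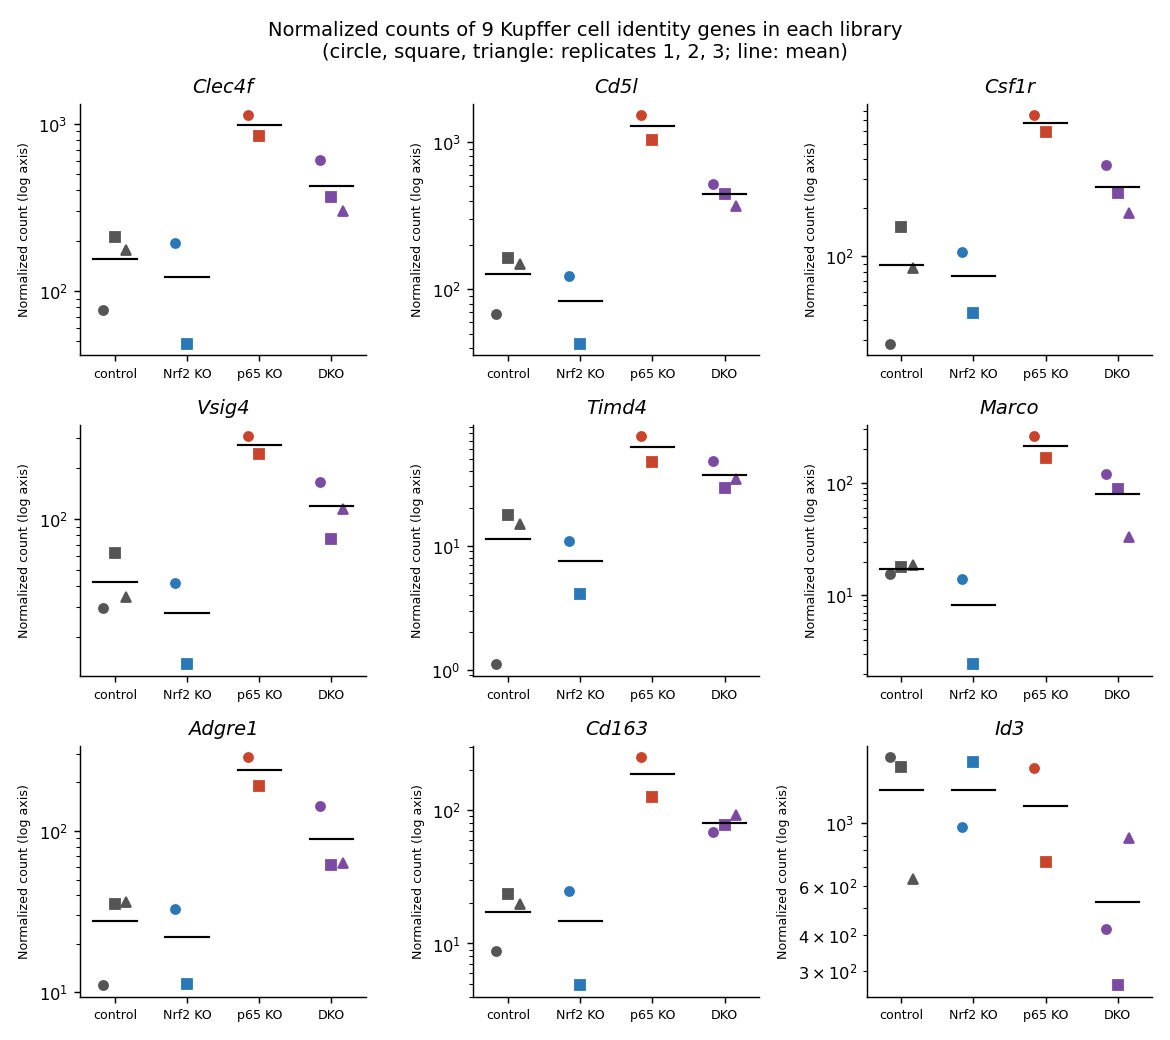
Normalized counts (log axis) of the 9 Kupffer cell genes in each of the 10 libraries, with 1 panel per gene and the genotype on the x axis; circles, squares, and triangles are replicates 1, 2, and 3, and lines are group means. In 8 panels both p65 KO libraries lie above all control libraries and the DKO libraries lie in between or overlap with p65 KO, whereas in the panel of Id3 the groups are mixed.

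Which samples carried this difference was seen in the order of the libraries. The p65 KO replicate 1 library was the highest of all 10 for 8 of the 9 genes, and both p65 KO libraries were the highest pair for 7. Control replicate 1 and Nrf2 KO replicate 2 were the lowest pair for 7 genes. Leaving out p65 KO replicate 1 left 1 library in that group. The log2 fold changes were then 2.45 for Clec4f, 2.72 for Csf1r, 2.76 for Adgre1, and 2.04 for Timd4. Without control replicate 1 and Nrf2 KO replicate 2 together, 7 genes were called, an alternative chosen after seeing the data. There, 324 of all 13518 genes tested were called higher, against 689 of 13641 with all libraries.

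Because all but Id3 moved together, the 250 bases before the transcription start sites of 8 of the 9 genes, all but Adgre1, were searched for short sequences bound by transcription factors of macrophages and of the Kupffer cell niche. The promoters of Clec4f, whose pattern over the libraries was nearest to the median of the 9 genes, of Cd5l, which was called in 5 of 7 comparisons, and of Id3, which did not move with the others, are shown 5′ to 3′ along each gene's own strand. They were read from GRCm39 with the start sites of GENCODE M39. Capitals mark GAGGAA, the core recognized by PU.1, and TGCTGA, a half-site of MAF factors, on either strand (TTCCTC and TCAGCA are their reverse complements).
Clec4f, chr6:83633170-83633419, minus strand: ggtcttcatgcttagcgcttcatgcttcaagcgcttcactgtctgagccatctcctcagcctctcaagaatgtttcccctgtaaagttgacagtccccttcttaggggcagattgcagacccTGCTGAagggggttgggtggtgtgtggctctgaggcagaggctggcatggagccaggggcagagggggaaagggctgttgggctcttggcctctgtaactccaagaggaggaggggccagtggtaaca
Cd5l, chr3:87264932-87265181, plus strand: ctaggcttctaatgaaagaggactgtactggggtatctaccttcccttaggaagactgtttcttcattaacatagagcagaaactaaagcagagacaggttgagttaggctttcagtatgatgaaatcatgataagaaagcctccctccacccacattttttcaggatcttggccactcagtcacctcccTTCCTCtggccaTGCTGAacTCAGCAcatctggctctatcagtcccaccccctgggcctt
Id3, chr4:135870558-135870807, plus strand: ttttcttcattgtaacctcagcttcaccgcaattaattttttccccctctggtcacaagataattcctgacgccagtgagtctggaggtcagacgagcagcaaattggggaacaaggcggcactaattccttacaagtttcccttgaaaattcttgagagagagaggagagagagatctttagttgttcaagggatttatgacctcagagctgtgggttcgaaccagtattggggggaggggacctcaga

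GAGGAA was found in 4 of these 8 promoters (Cd5l, Csf1r, Vsig4, and Marco) and in 22.9% of the 13637 promoters of tested genes. TGCTGA was found in 3 of the 8 (Clec4f, Cd5l, and Timd4) and in 12.9% of all promoters. In Cd5l 2 of these half-sites face each other 2 bases apart, the arrangement of a full site of MAF factors. The 2 bases between them (ac) keep the whole from being a perfect palindrome. This arrangement was searched for after the sequence had been seen, with any 2 bases allowed in between. It occurred in 1 of the 13637 promoters, that of Cd5l, and the form with 1 base in between in 0. Of the other sequences searched on both strands, TGGGAA, the core of RBPJ, was found in Marco and in 22.2% of all promoters, whereas GGCGCC, bound by SMAD proteins downstream of BMP (12.1%), and the longer PU.1 sequence GAGGAAGT (2.12%), which contains GAGGAA, were found in 0 of the 8. None of the sequences searched occurs in the window shown for Id3. These matches describe letters in a window and not binding.

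In DKO libraries, 8 of the 9 genes were again above control in every library, but 3 of them were called. All libraries lay above control for 13.2% of all genes tested, and 1.36% were called higher and 1.02% lower. In DKO replicates 1, 2, and 3, Cd5l reached 519, 443, and 365 normalized counts, a log2 fold change from control of 1.80 (SE 0.368, FDR = 0.0216 from edgeR). Marco had 120, 88.6, and 33.2, a log2 fold change of 2.21 (SE 0.535, FDR = 0.0379). Cd163 had 68.4, 77.4, and 92.7, a log2 fold change of 2.18 (SE 0.518, FDR = 0.0357). The DKO libraries of Cd5l and Cd163 lay close together, whereas those of Marco were spread, with replicate 3 lowest.

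The other genes that were above control in all DKO libraries did not reach the threshold. Clec4f had 611, 365, and 302 normalized counts in DKO (log2 fold change 1.46, FDR = 0.0982). Csf1r had 370, 247, and 187 (1.59, FDR = 0.0855). Vsig4 had 165, 76.3, and 114 (1.48, FDR = 0.0694). In Clec4f and Csf1r replicate 1 was the highest of the 3 DKO libraries and replicate 3 the lowest. Adgre1 had 143, 61.7, and 62.9 normalized counts (1.68, FDR = 0.0867), and Timd4 had 48.4, 29.2, and 34.3 (1.70, FDR = 0.164). The lower confidence limits of these 5 log2 fold changes were between 0.23 and 0.55. Id3 had 420, 266, and 889 normalized counts in DKO, a log2 fold change of -1.32 (95% confidence interval from -2.38 to -0.25, FDR = 0.139). It was the only one of the 9 with an estimate below 0 in this comparison, and DKO replicate 3 lay within the range of control. All 9 genes had an unadjusted p under 0.05, a share not counted over all genes tested. The number of calls was 5 with DESeq2 and 2 with limma, where 534 and 371 of all 13641 genes tested were called. That number was 0 without control replicate 1 or without DKO replicate 1, where 147 and 249 of all genes tested were called.

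Between DKO and p65 KO, both of which lack p65 by their labels, all 9 estimates were below 0, the median being -1.24 on the log2 scale, where that of all genes tested was 0.000301. For 7 of the 9 genes all DKO libraries lay below both p65 KO libraries, which held for 20.1% of all genes tested. Cd5l was called, with a log2 fold change of -1.53 (SE 0.376, FDR = 0.0484), that is, 0.347 times the p65 KO level, where 0.968% of all genes tested were called lower. The other estimates lay between -1.41 for Adgre1 and -0.72 for Timd4, with FDR values of at least 0.138. Of the 9 genes, 7 had an unadjusted p under 0.05, a share not counted over all genes tested. The call of Cd5l was lost with limma (FDR = 0.0839) and without p65 KO replicate 1 (log2 fold change -1.22, FDR = 0.265). Leaving out any of the 3 DKO libraries, p65 KO replicate 2, or control replicate 2 or 3 also ended it, with FDR values between 0.0613 and 0.11.

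In Nrf2 KO libraries, 0 of the 9 genes were called against control by edgeR, DESeq2, or limma, and 0 had an unadjusted p under 0.05, where 0.55% of all genes tested were called. Clec4f had 195 and 48.5 normalized counts in Nrf2 KO replicates 1 and 2, Cd5l had 124 and 42.8, and Csf1r 107 and 44.5. For each of the 8 genes other than Id3, replicate 1 was higher than replicate 2. Vsig4 had 41.5 and 13.7 normalized counts, Timd4 10.9 and 4.04, and Adgre1 32.6 and 11.3. Cd163 had 24.7 and 4.85 and Marco 13.8 and 2.42, and Marco was the only gene of the 9 with both libraries below control, which held for 13.6% of all genes tested. Its log2 fold change of -1.14 had a 95% confidence interval from -2.70 to 0.43. Id3 showed the opposite order, with 965 and 1650 normalized counts, and an estimate of 0.000612 (95% confidence interval from -1.15 to 1.16). The intervals of all 9 genes included 0. Those of the 8 other genes reached from between -2.70 and -1.50 up to between 0.33 and 1.16. Changes within the interval of a gene were therefore not excluded for it.

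**Figure D2:**
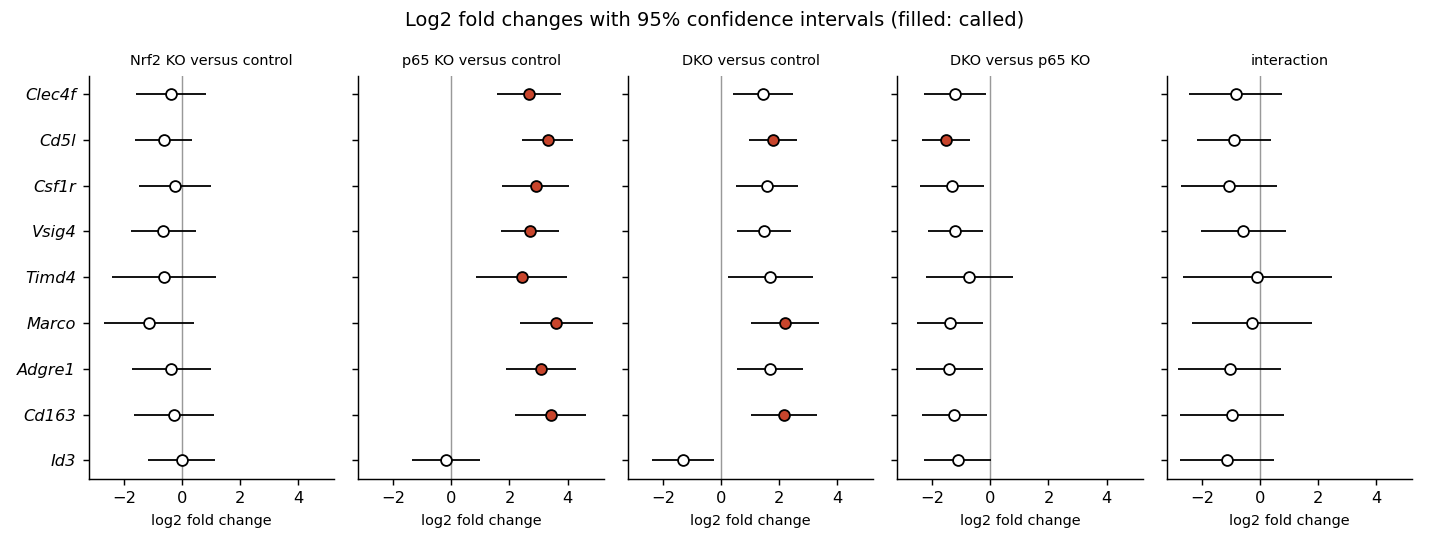
Log2 fold changes (x axis) of the 9 genes (y axis) with 95% confidence intervals in 5 comparisons, with filled points for called genes. The 8 filled points of p65 KO versus control lie between 2.42 and 3.62, all points of DKO versus p65 KO and of the interaction lie below 0, and the intervals of Nrf2 KO versus control and of the interaction include 0 throughout.

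The difference between DKO and Nrf2 KO, which is the difference made by floxed p65 in Nrf2 flox/flox mice, was above 0 for 8 of the 9 genes. In each of the 8 all 3 DKO libraries lay above both Nrf2 KO libraries (15.8% of all genes tested), and for Id3 they lay below (16.4%). Cd5l was called, with a log2 fold change of 2.43 (SE 0.445, FDR = 0.0437 from edgeR), where 0.293% of all genes tested were called higher and 0.139% lower. Marco had the largest estimate, of 3.35 (SE 0.685, FDR = 0.0692), and that of Id3 was -1.32 (FDR = 0.282). All 9 genes had an unadjusted p under 0.05, a share not counted over all genes tested. DESeq2 called 5 genes and limma 2, where 296 and 85 of all 13641 genes tested were called. The call of Cd5l by edgeR was lost without any 1 of the libraries other than control replicate 1 and Nrf2 KO replicate 1. Where a control or DKO library was left out and the call was lost, its FDR was between 0.0521 and 0.0833. Without Nrf2 KO replicate 2, which left 1 library in that group, the log2 fold change of Cd5l was 1.84. Averaged over both states of Nrf2, the p65 effect was called for 8 of the 9 genes, where 5.09% of all genes tested were called higher. The log2 fold changes of these 8 genes lay between 2.25 for Clec4f and 3.48 for Marco, and Cd5l again had the lowest FDR (log2 fold change 2.88, SE 0.303, FDR = 0.000706). For each of the 8, the 5 libraries with floxed p65 lay above the 5 without, which held for 4.83% of all genes tested. Id3 was at -0.75 (FDR = 0.194). Timd4 missed the threshold without p65 KO replicate 1 (FDR = 0.0654) and without Nrf2 KO replicate 2 (FDR = 0.0831), and the other 7 calls were kept when any library was left out. The comparisons with control share the control libraries, and those with DKO share the DKO libraries, so their values are not independent of each other.

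Whether the p65 difference itself differed between the 2 states of Nrf2 was tested as an interaction, DKO minus p65 KO minus the difference between Nrf2 KO and control. All 9 estimates were below 0, between -1.13 for Id3 and -0.09 for Timd4, and 0 were called (FDR between 0.512 and 0.987), where 0.455% of all genes tested were called. No gene of the 9 had an unadjusted p under 0.05, and DESeq2 and limma also called 0. The intervals were wide, from -2.16 to 0.38 for Cd5l and from -2.65 to 2.47 for Timd4. Without Nrf2 KO replicate 1 the estimates of Clec4f, Cd5l, Vsig4, Timd4, Marco, and Cd163 lay above 0, between 0.04 and 1.37. Timd4 was also above 0 without control replicate 1 (0.42), p65 KO replicate 1 (0.29), or DKO replicate 2 (0.058), and Marco without p65 KO replicate 1 (0.092) or DKO replicate 3 (0.11), so that the direction of these 6 genes was not stable.

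The composition within the 8 genes other than Id3 was compared as shares of their summed normalized counts, which are not corrected for length. Clec4f made up between 28.2% and 35.5% of the sum in the 5 libraries without floxed p65 and between 24.6% and 29.9% in the 5 with it. Cd5l made up between 22.5% and 28.4% in the former and between 25.4% and 33.1% in the latter, and it had a larger share than Clec4f in both p65 KO libraries and in DKO replicates 2 and 3. The share of Marco ranged from 1.41% in Nrf2 KO replicate 2 to 6.42% in control replicate 1, and thus did not separate the genotypes. Adgre1 kept between 4.45% and 7.0% in all 10 libraries.

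The likeness of each gene to the median pattern of the 9 was measured as the root mean square difference of centered log2(normalized count + 1) over the 10 libraries. Clec4f was nearest to the median, at 0.123, followed by Adgre1 at 0.223, Cd5l at 0.254, Csf1r at 0.258, and Vsig4 at 0.307. Cd163, Timd4, and Marco lay further away, at 0.431, 0.532, and 0.639, and Id3 lay at 1.92. Among 10177 other genes whose mean normalized count was at least 50, the nearest were C1qa (0.179) and C1qb (0.228), which encode chains of complement C1q, Sdc3 (0.231), which encodes a syndecan, and C1qc (0.239), the third C1q chain. They were followed by Siglec1 (0.251), the sialic acid receptor of resident macrophages, Axl (0.31), a receptor for the uptake of apoptotic cells, and the phagocyte genes Ctss (0.334) and Lyz2 (0.353). C1qb, for example, had 70.6 ± 23.5 normalized counts in control (SD, n = 3), 505 ± 45.9 in p65 KO (SD, n = 2), and 224 ± 23.9 in DKO (SD, n = 3).

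Other genes enriched in Kupffer cells were compared to see how far the pattern held beyond the 9. Of 10 such genes, 7 were called higher in p65 KO (Mrc1, Fcna, Clec1b, Folr2, Kcna2, Tmem26, and Il18bp), 1 in DKO (Clec1b), and 0 in Nrf2 KO, and Il18bp was called lower in DKO than in p65 KO. Clec1b, a C-type lectin receptor, had 7.73, 12.8, and 8.41 normalized counts in control, 72.1 and 112 in p65 KO, and 48.4, 46.0, and 52.6 in DKO, without overlap between these genotypes. Its log2 fold change was 3.23 in p65 KO (FDR = 0.00227 from edgeR) and 2.33 in DKO (FDR = 0.0132). Fcna, a ficolin that binds microbial sugars, and Folr2, a folate receptor, had log2 fold changes in p65 KO of 2.07 (FDR = 0.0151) and 1.93 (FDR = 0.0318), Kcna2, a potassium channel, 3.38 (FDR = 0.00743), and Tmem26 3.56 (FDR = 0.0229). Mrc1, the mannose receptor, and Il18bp, which binds interleukin 18, were at 2.09 (FDR = 0.00624) and 1.98 (FDR = 0.000763), and both are also made by other liver cells. The chemokine gene Ccl24, with between 2.95 and 7.47 normalized counts in control and 19.3 and 23.6 in p65 KO, was at 2.19 (FDR = 0.0562). The other 2 genes, Slc40a1, the iron exporter, and Hpgd, a prostaglandin dehydrogenase, are also expressed by hepatocytes and were not called, with log2 fold changes of -0.04 and 0.23.

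Of 8 transcription factors that specify macrophages or Kupffer cells, Spi1, Zeb2, and Irf8 were called higher in p65 KO and Zeb2 and Irf8 in DKO. Irf8, which is needed for the development of mononuclear phagocytes, had 32.0, 39.3, and 22.4 normalized counts in control, 41.5 and 58.2 in Nrf2 KO, 165 and 122 in p65 KO, and 91.5, 78.5, and 52.6 in DKO. Its log2 fold change was 2.19 in p65 KO (FDR = 0.00369 from edgeR) and 1.25 in DKO (FDR = 0.048). Spi1, which encodes PU.1, and Zeb2 had log2 fold changes in p65 KO of 3.07 (FDR = 0.00833) and 2.88 (FDR = 0.00232). Nr1h3, which encodes the liver X receptor α and is also abundant in hepatocytes, Smad4, and Rbpj, which acts downstream of Notch, were at -0.29, -0.03, and 0.36 in p65 KO and were not called.

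Id3 was also set beside the 3 other genes of its family. Id2 had 7005, 7127, and 5876 normalized counts in control, 5264 and 6497 in Nrf2 KO, 6601 and 4269 in p65 KO, and 3865, 2418, and 3593 in DKO, and it was called lower in DKO than in control (log2 fold change -1.02, FDR = 0.0187 from edgeR). Id1 had 171, 177, and 428 in control and 71.5, 64.0, and 323 in DKO (-0.77, FDR = 0.477), and Id4 was below 21 normalized counts in every library. None of the family was called higher in p65 KO, where the log2 fold changes were -0.30 for Id2, 0.63 for Id1, and 1.35 for Id4.

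**Figure D3:**
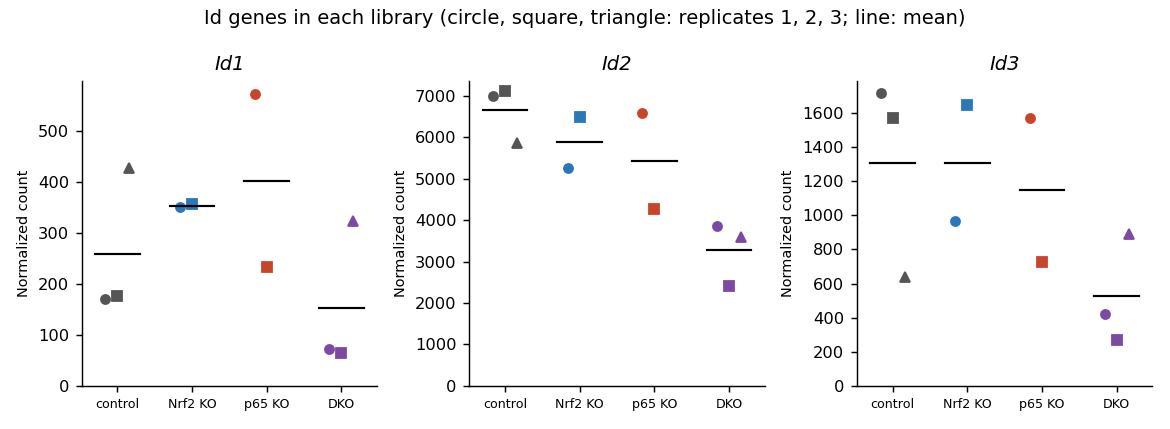
Normalized counts (linear y axis from 0) of Id1, Id2, and Id3 in each library by genotype; circles, squares, and triangles are replicates 1, 2, and 3, and lines are group means. The 3 DKO libraries of Id2, between 2418 and 3865, lie below all other libraries, whereas those of Id1 and Id3 overlap with control.

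Of 9 ligands of these receptors and niche signals, 4 were called higher in p65 KO (Tgfb1, Csf1, Dll4, and Gdf2), 1 in DKO (Dll4), and 0 in Nrf2 KO. Csf1, the growth factor that binds Csf1r, had 86.1, 110, and 57.0 normalized counts in control, 214 and 272 in p65 KO, and 145, 102, and 96.1 in DKO. Its log2 fold change was 1.53 in p65 KO (FDR = 0.0187 from edgeR) and 0.44 in DKO (FDR = 0.453). The other ligand of this receptor, Il34, had at most 2.21 normalized counts in the control libraries and 15.2 and 17.0 in p65 KO, and was not called (FDR = 0.0567). The Notch ligand Dll4 had log2 fold changes of 2.43 in p65 KO (FDR = 0.0195) and 2.23 in DKO (FDR = 0.0363), and Jag1 of 0.24 and -0.44 without a call. Gdf2, a BMP made by stellate cells, was at 3.64 in p65 KO (FDR = 0.0393), its relative Bmp10 at 2.51 (FDR = 0.164), and Tgfb1 at 1.81 (FDR = 0.0173). The log2 fold changes in p65 KO of the hepatocyte products C3, whose fragments bind Vsig4, and Hp, which forms the complex taken up by Cd163, were 0.02 and -0.16.

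Of 20 genes of the receptor families to which the 9 belong, 13 passed the filter on low counts, 7 were called higher in p65 KO (Adgre5, Kit, Scara5, Clec4n, Msr1, Adgre4, and Clec4a1), and 0 in DKO. Scara5, a scavenger receptor for ferritin, had 204, 43.3, and 80.3 normalized counts in control, 373 and 460 in p65 KO, and 422, 247, and 193 in DKO (log2 fold change in p65 KO 1.94, FDR = 0.0409 from edgeR). Timd2, which belongs to the family of Timd4, lay between 2104 and 3000 normalized counts in all libraries and was at -0.08 in p65 KO. Csf2rb, a cytokine receptor subunit, was at -0.91 (FDR = 0.0842).

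Genes of macrophages in general were higher together with the 8 genes other than Id3. Of 15 such genes, 11 were called higher in p65 KO and 5 in DKO, with median log2 fold changes of 2.59 and 1.58, and Cybb and Ctss were called lower in DKO than in p65 KO. Mpeg1, a pore-forming protein of phagocytes, had between 558 and 663 normalized counts in control, 1596 and 1246 in Nrf2 KO, 3202 and 2649 in p65 KO, and between 1105 and 2271 in DKO. Lyz2 had log2 fold changes of 2.14 in p65 KO (FDR = 0.0055) and 1.40 in DKO (FDR = 0.0396), and the protease gene Lgmn was at 0.77 in p65 KO. The summed normalized counts of the 8 genes other than Id3 were divided by those of the 15 macrophage genes. This ratio lay between 0.156 and 0.367 in control, between 0.0796 and 0.202 in Nrf2 KO, between 0.577 and 0.651 in p65 KO, and between 0.345 and 0.482 in DKO. The sum of the 15 was 2710 and 2162 in Nrf2 KO, of which Mpeg1 made up 1596 and 1246, and between 1544 and 1867 in control. The ratio thus depends much on this 1 gene, and the median log2 fold change of the 15 in Nrf2 KO was -0.09.

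Markers of other blood cells were also examined. Of 8 monocyte genes, all 8 had both p65 KO libraries above all control libraries, which held for 26.2% of all genes tested. Ccr2 alone was called in p65 KO, and Ly6c2, Ms4a4c, Itgam, and Ccr2 were called for the p65 effect averaged over both states of Nrf2. Apart from Plac8, these genes had at most 4.42 normalized counts in any control library, so that their fold changes rest on few counts. Ccr2 had at most 1 count in each control library and 26.4 and 6.62 normalized counts in p65 KO, whereas Plac8 and Itgam were not called there (FDR = 0.165 and 0.117). The summed monocyte genes lay between 46.4 and 67.9 normalized counts in control, at 143 and 121 in p65 KO, and between 68.7 and 110.0 in DKO. The erythroid sum lay between 3133 and 5605 normalized counts in all 10 libraries, most of it from Alas2, and the B cell sum between 58.9 and 461, most of it from Ighm. Of 6 genes of lipid-associated macrophages, 2 were called in p65 KO (Itgax and Mmp12), and of 4 neutrophil genes tested 1 (Csf3r). In p65 KO 0 of 4 dendritic cell genes, 0 of 6 T and NK cell genes, 0 of 4 B cell genes, 0 of 3 cholangiocyte genes, 0 of 5 erythroid genes, and 0 of 10 hepatocyte genes tested were called.

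Other cells of the sinusoid also moved with the 8 genes. All 12 genes of sinusoidal endothelial cells were called higher in p65 KO, with log2 fold changes between 1.45 and 2.66 (median 1.88), and 2 were called in DKO (Dnase1l3 and Lyve1, median of the 12 genes 0.96). Their summed normalized counts were 943, 1755, and 1964 in control, 2306 and 1222 in Nrf2 KO, 6881 and 5003 in p65 KO, and 3169, 3749, and 2621 in DKO. The lowest of these values were those of control replicate 1 and Nrf2 KO replicate 2, which were also lowest for most of the 9 Kupffer cell genes. Clec4g, a lectin of these endothelial cells, had for example 123, 193, and 265 normalized counts in control and 752 and 707 in p65 KO. Of 11 stellate cell genes, 9 were called higher in p65 KO (median 3.06) and 1 in DKO (Dcn), and their sum lay between 295 and 543 in control, between 241 and 466 in Nrf2 KO, at 2944 and 2794 in p65 KO, and between 542 and 1408 in DKO. No gene of either list was at 0 in all libraries. The part of these other cells in the result was not tested.

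**Figure D4:**
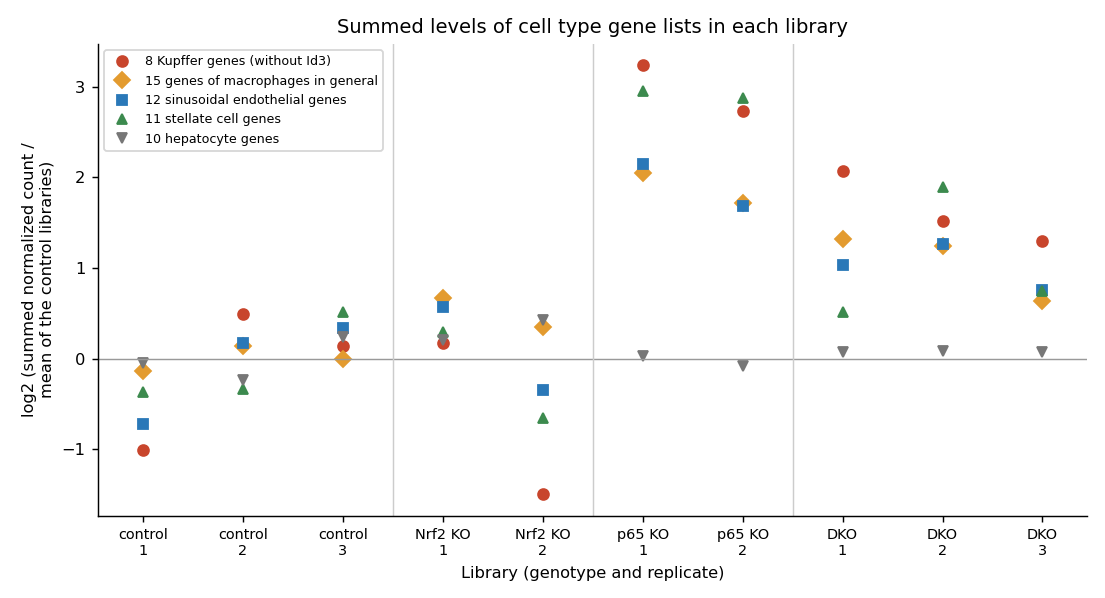
Log2 of the summed normalized counts of 5 gene lists relative to the mean of the control libraries (y axis) in each of the 10 libraries (x axis). The Kupffer, macrophage, endothelial, and stellate sums all lie highest in the p65 KO libraries, and the sum of 10 hepatocyte genes stays near 0.

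The 8 genes other than Id3 were therefore also expressed per normalized count of the 12 endothelial genes. Their sum per endothelial sum was 0.255, 0.39, and 0.272 in control, 0.238 and 0.141 in Nrf2 KO, 0.666 and 0.647 in p65 KO, and 0.645, 0.37, and 0.454 in DKO. Both p65 KO libraries remained above all control libraries on this scale, and DKO overlapped with control. The sum of 3 other Kupffer cell genes, Folr2, Clec1b, and Fcna, per endothelial sum was 0.0632, 0.0739, and 0.0471 in control and 0.0681 and 0.0818 in p65 KO, which overlapped. Per normalized count of the 11 stellate cell genes, a scale added after the values had been seen, the sum of the 8 genes was 0.816, 2.27, and 0.983 in control and 1.56 and 1.16 in p65 KO, so that the groups overlapped on that scale. There, 1 of the 8 genes, Marco, had both p65 KO libraries above control, a share not counted over all genes tested. The stellate sum was itself higher in p65 KO (2794 and 2944) than in control (295 to 543), which lowers such ratios in p65 KO. By gene and per endothelial sum, p65 KO lay above control without overlap for 7 of the 8, the exception being Timd4, and for 3.57% of all genes tested. Over the 5 libraries with and the 5 without floxed p65, these ratios were higher without overlap for 2 of the 8, Cd5l and Cd163, and for 0.374% of all genes tested. The endothelial sum was itself higher in the 5 libraries with floxed p65 (2621 to 6881) than in the 5 without (943 to 2306). Dividing by it lowers the ratio there for every gene that did not rise as much. Both shares are therefore low by construction and do not measure how unusual the 8 genes are. Cd5l had between 11.8 and 22.1 normalized counts per 100 endothelial counts with floxed p65 and between 3.51 and 9.30 without, and Cd163 had between 2.07 and 3.65 and between 0.397 and 1.34. Clec4f, with between 9.73 and 19.3 and between 3.97 and 12.0, overlapped because of DKO replicates 2 and 3.

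**Figure D5:**
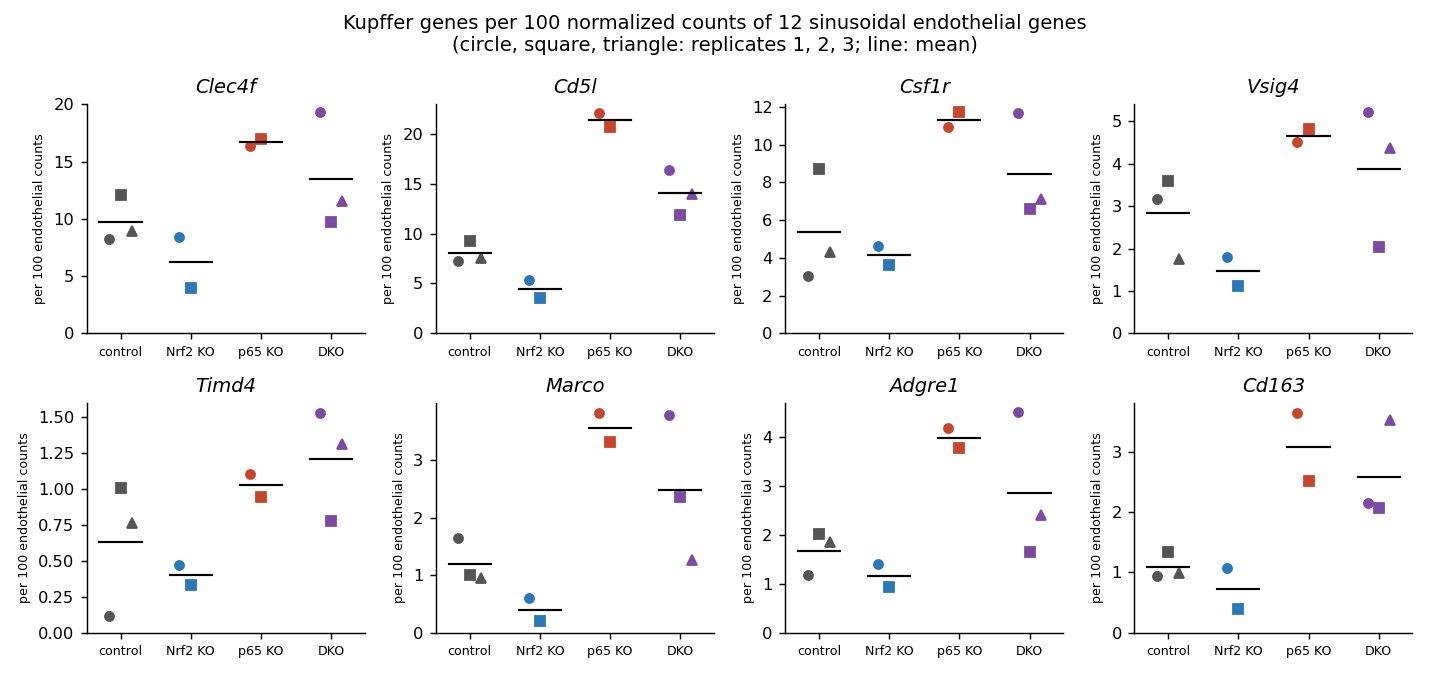
Normalized counts of each of the 8 genes per 100 normalized counts of 12 sinusoidal endothelial genes (linear y axis from 0) in each library by genotype; circles, squares, and triangles are replicates 1, 2, and 3, and lines are group means. The p65 KO libraries lie above control in all panels but that of Timd4, and the DKO libraries are separated from both control and Nrf2 KO in the panels of Cd5l and Cd163.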

How the data were processed

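RNA from freshly isolated hepatocytes of 10 mice was analyzed, with 1 polyA-enriched library per mouse (single-end reads of stranded TruSeq libraries). Per the labels and the methods, the authors used Salmon 1.10.3 with the GENCODE M33 transcripts of GRCm39, and the values they deposited are estimated counts, 1 for each gene in each mouse. The summing of transcripts to genes is not given in the sources used here. Although named as normalized, the table holds whole numbers whose totals (33707165 to 49897382) and size factors (0.879 to 1.26) differ between libraries, and the counts were therefore used as deposited. Per the submitters' processing notes, DESeq2 1.42.1 was used upstream. Intervals cover the spread between mice, and totals of this size limit genes with few counts.

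Groups were taken from the labels. Tests were those of edgeR 4.0.16 under R 4.3.3 (quasi-likelihood, TMM, a minimum of 10 counts per gene over all 10 libraries, 4 genotypes in 1 fit, Benjamini-Hochberg adjustment over 13641 genes) in 7 comparisons, with the authors' thresholds (FDR of at most 0.05, log2 fold change of at least 1). Of the 21939 genes, 6302 were at 0 in every library, and 21926 identifiers matched GENCODE M39. Standard errors are the log2 fold change divided by the root of the F statistic. Counts were simulated with log2 changes of 2 or 3 in either direction, in genes above a minimum mean count. The test recovered between 90.2% and 98.0% of these changed genes, with 7 or 8 false calls. Smaller changes, genes that vary together, and comparisons other than those with control were not simulated. Replicates differed by more than sampling noise (chi-square per degree of freedom between 46.9 and 215).

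The 9 members and all gene lists were chosen with earlier results of these data known. The promoter of Adgre1 and 2 further genes of the lists are not reported here. Named besides the members were the targeted genes, all other Kupffer genes, ligands, and Id genes, the 3 genes of each other list with the highest mean, genes of a list that were called, and the 8 genes most like the members. Alternatives were limma 3.58.1, DESeq2 1.42.0, 3 other scalings, 2 other filters, a block for the replicate number, fits of the 2 genotypes alone, and each library left out.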

Additional observations from a re-analysis of the deposited data

How the results depend on the processing

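Of the 8 calls for the averaged p65 effect, 7 were kept under all alternatives run, and that of Timd4 was lost without Nrf2 KO replicate 2 (FDR = 0.0831 from edgeR) and without p65 KO replicate 1 (FDR = 0.0654). The absence of calls in Nrf2 KO and in the interaction, and the direction of the 8 genes in p65 KO and DKO against control were kept under all of them. In p65 KO against control the count of 8 ranged from 4 to 8 when libraries were left out, with 4 without p65 KO replicate 1. In DKO against control the count of 3 was 5 with DESeq2, 5 without a filter, and 1 with the replicate number as a block, and it ranged from 0 to 5 when libraries were left out. Without control replicate 1 and Nrf2 KO replicate 2 together it was 1. Between DKO and p65 KO the single call became 0 with limma, with upper quartile scaling, and with the replicate block, and ranged from 0 to 1 when libraries were left out. Between DKO and Nrf2 KO it became 2 with limma, 5 with DESeq2, 2 without a filter, and 0 with equal totals, the filter on a mean of 10 counts, the replicate block, or only the 2 genotypes compared, and ranged from 0 to 1 when libraries were left out. A library left alone in its group was assumed to vary like the other groups. The replicate numbers were not taken as pairs in the main fit. Same-numbered libraries of different genotypes had correlations of their deviations from the group mean between -0.132 and 0.0842. These values cannot show whether mice were paired, since the deviations in a group of 2 libraries mirror each other. The number of calls over all genes tested also changed with the setting. With DESeq2 it was 534 in DKO against control and 296 between DKO and Nrf2 KO. The causes of these changes were not tested.

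Some estimates that were not called changed sign. Id3 in Nrf2 KO, at 0.000612, became -0.0103 with DESeq2, -0.00822 with DESeq2's size factors, -0.0186 with equal totals, -0.00561 with the filter on a mean of 10, and -0.0011 with only the 2 genotypes compared, and Marco in the interaction became 0.32 with the replicate block. When libraries were left out, the estimates in Nrf2 KO ranged from -1.68 to 0.33 for Clec4f, from -1.0 to 0.37 for Csf1r, from -1.29 to 0.23 for Adgre1, from -1.82 to 0.50 for Cd163, and from -0.44 to 0.34 for Id3. That of Id3 in p65 KO ranged from -0.84 to 0.27. In the interaction they ranged from -1.54 to 0.47 for Clec4f, from -1.48 to 0.042 for Cd5l, from -1.18 to 0.41 for Vsig4, from -0.66 to 0.75 for Timd4, from -1.08 to 1.37 for Marco, and from -1.74 to 0.58 for Cd163.

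Scaling to equal totals moved the median log2 fold change of all genes by 0.18 in p65 KO and by -0.27 between DKO and p65 KO, and changes are relative to such shifts. With it 46.4% of the calls in DKO against control, 17.1% of those between DKO and p65 KO, and 22.9% of those in the interaction were higher. Counts under 3 in a library, as for Timd4 in control replicate 1, limit the precision of the lowest levels.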

Other observations

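Cd4, listed with the T and NK cell genes and also expressed by some macrophages, had 23.2, 34.4, and 14.0 normalized counts in control, 62.3 and 58.2 in Nrf2 KO, 17.3 and 22.7 in p65 KO, and 139, 75.2, and 64.1 in DKO. It was called higher in DKO than in control (log2 fold change 1.96, FDR = 0.0229 from edgeR) and than in p65 KO (2.21, FDR = 0.0341), and its order of genotypes thus differed from that of the Kupffer cell genes, a difference that was not tested. Gzma and Klrb1c of the same list had at most 8.42 normalized counts in any library and were not called. Among genes of macrophages in general, Mpeg1 had a log2 fold change of 1.23 in Nrf2 KO (FDR = 0.0596), with both libraries above all control libraries, whereas the estimates of the 8 Kupffer cell genes other than Id3 were below 0 there. The hemoglobin genes Hbb-bs and Hba-a1 had 452 and 382 normalized counts in DKO replicate 1, and between 16.1 and 71.9 in the 7 libraries of the other genotypes (log2 fold changes from control in DKO of 2.06 and 2.23, FDR = 0.0732 and 0.0708). How far these fold changes rest on replicate 1 was not tested. Of the 5 erythroid genes tested, 2 had all DKO libraries above control (13.2% of all genes tested) and 3 had them above Nrf2 KO (15.8%).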
